A study of Mus musculus with 10 samples.

Results

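TGF-beta, BMP and activin signaling was described here through 50 genes that encode the ligands, receptors, SMAD proteins, antagonists and ID proteins of this superfamily. The genes were found by symbol, and all 50 of them were present among the 24302 genes of both deposited tables. The series holds libraries of 10 whole C57BL/6 mouse embryos at embryonic day 11.5, of which 3 were wildtype, 3 heterozygous (WWC2-/+) and 4 homozygous (WWC2-/-) for the deletion. *Wwc2* encodes an upstream component of the Hippo pathway, and its floxed alleles were deleted with a Cre driven by the *Zp3* promoter, which is active in growing oocytes. The measurement used is the authors' mean normalized count of each gene over all 10 embryos, so each value averages the 3 genotypes and is not the level of a wildtype embryo. No value per embryo or per genotype was used, and therefore no spread, no test and no comparison between genotypes can be given for any value.

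Ligands of the superfamily are secreted dimers that bring a type II receptor and a type I receptor together. The type II receptor phosphorylates the type I receptor, which in turn phosphorylates receptor-regulated SMAD proteins (R-SMADs). SMAD2 and SMAD3 carry signals of TGF-beta, activin and Nodal, and SMAD1, SMAD5 and SMAD9 carry those of BMPs. Both kinds bind the shared SMAD4 and enter the nucleus, where BMP signals switch on the *Id* genes. In embryos of this age the pathway is known for patterning of limb, neural tube, heart and skeleton and for vessel formation.

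Most of the 50 genes were well expressed in the mean over the embryos. The mean normalized count was at least 10 for 49 of them, at least 100 for 42 and at least 1000 for 19. Of all 24302 genes, 65.5%, 51.9% and 25.6% reached these values. Counts grow with the length of a transcript, so genes were ordered by their level per length, and counts are given to show how well each gene was covered. For this, each mean normalized count was divided by the length of the gene's merged exons and scaled so that all genes with a known length add up to 1000000. This per-length level had a median of 25.6 over the 50 genes and of 10.7 over all genes with a mean above 0. Of the 50 genes, 35 lay above that median of all genes and 15 at or below it, and 6 lay in the top 10% of all genes. Against the median of the genes whose mean normalized count was 10 or more, which was 20.5, 29 of the 50 genes lay above it. The summed per-length level of the 50 genes was 2212, of which the 5 highest genes held 45.4%. Because the RNA came from whole embryos, fewer cells that express a gene and less RNA per cell cannot be told apart in any of these levels.

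**Figure D1:**
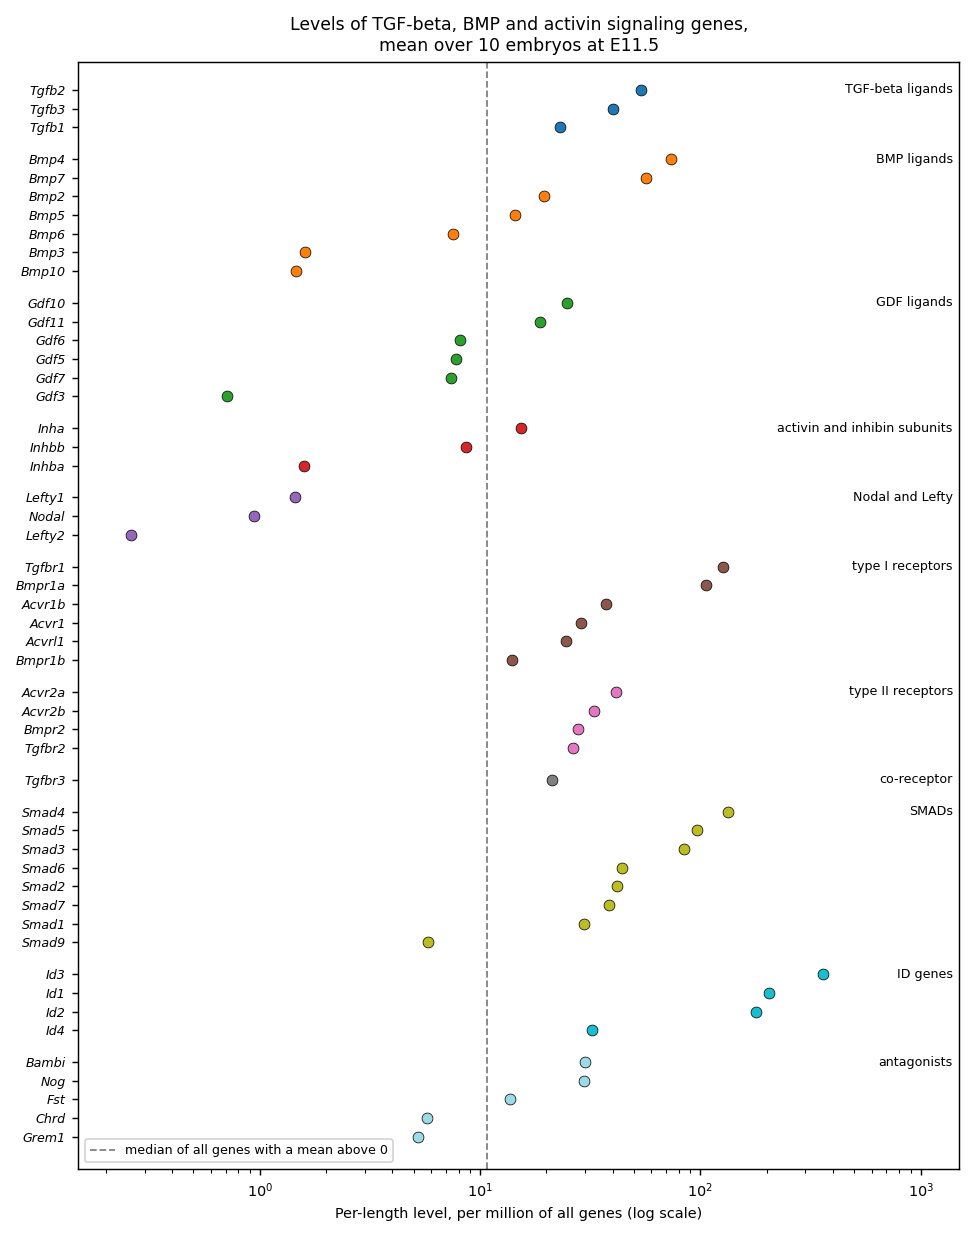
Per-length levels of the 50 genes (x axis, scaled to 1000000 over all genes, log scale) by role, each point being the authors' mean over 10 embryos with no error available, and the dashed line the median of all genes with a mean above 0, 10.7. *Id3* lies highest at 360 and *Lefty2* lowest at 0.261.

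The *Id* genes encode helix-loop-helix proteins without a DNA-binding region, which hold back differentiation by capturing other helix-loop-helix factors. *Id3* had a mean normalized count of 4500 and the highest per-length level of the 50 genes, 359.7, higher than 98.2% of all genes with a mean above 0. *Id1* followed with a per-length level of 206 and *Id2* with 179. The order of these last genes depended on the length used, since *Id2* lay above *Id1* when counts were divided by the longest transcript (166 against 154) or by coding length (293 against 147). Here and below, the count divided by coding length is still that of the whole gene. Levels per coding length are therefore raised for genes with much untranslated sequence relative to the others. *Id4*, which is known for its expression in the nervous system, had a mean normalized count of 866 and a per-length level of 32.2, so that *Id3* exceeded it 11.2 times per merged exon length and 7.03 times per coding length. Together the 4 *Id* genes held 35.1% of the summed per-length level of the 50 genes.

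The 8 SMAD genes held 21.5% of the summed per-length level. All 8 had a mean normalized count above 100, and 6 of them reached 1000. *Smad4*, the partner shared by both branches, had a mean normalized count of 3464 and the highest per-length level of the SMADs, 133.6. Among the R-SMADs of the BMP branch, *Smad5* predominated. Its mean normalized count was 5028 and its per-length level 97.0, against 29.6 for *Smad1* and 5.82 for *Smad9*, the lowest SMAD with a mean normalized count of 218. *Smad5* thus exceeded *Smad1* 3.28 times and *Smad9* 16.7 times per merged exon length, and 3.88 times and 21.3 times per coding length. In the TGF-beta and activin branch, *Smad3* had a per-length level of 84.2 and *Smad2* of 41.8, a ratio of 2.01 that became 1.40 per coding length. Summed over its genes, the BMP branch had a per-length level of 132 and the TGF-beta and activin branch of 126. *Smad6* and *Smad7* encode inhibitory SMADs that compete for the receptors. Their per-length levels were 44.2 and 38.5, and their order turned with coding length, where *Smad7* lay at 42.4 and *Smad6* at 29.7. With coding length, *Smad4* at 93.3 lay below both *Smad5* at 160.5 and *Smad3* at 114.

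All 11 receptor and co-receptor genes had a mean normalized count above 100, and they held 22.0% of the summed per-length level. Type I receptors spanned a wider range than type II receptors. *Tgfbr1*, the type I receptor for TGF-beta, had a mean normalized count of 5764 and the highest per-length level of the receptors, 126. *Bmpr1a*, a type I receptor for BMPs that is expressed in most tissues, had a mean normalized count of 4724 and the second highest per-length level of the type I receptors, 106. *Bmpr1b*, a related receptor of cartilage condensations, was lowest of the type I receptors at 14.0, and *Bmpr1a* exceeded it 7.59 times. *Acvr1b*, the main activin type I receptor, had a per-length level of 37.4, *Acvr1*, which encodes the BMP receptor ALK2, of 28.6 and *Acvrl1* of 24.6. *Acvrl1* encodes ALK1, the BMP receptor of endothelial cells, and its mean normalized count was 733. *Acvr1b* and *Acvr1* changed places when the longest transcript was used, with 28.0 and 31.4.

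The 4 type II receptors lay close together. Their per-length levels were 41.3 for *Acvr2a*, 33.0 for *Acvr2b*, 27.9 for *Bmpr2* and 26.4 for *Tgfbr2*. The highest exceeded the lowest 1.57 times, a difference that cannot be set against any spread between embryos. *Bmpr2* has the longest merged exons of these genes, 17983 bases, and moved to the top of the class with coding length, at 50.1. *Tgfbr1* exceeded its partner *Tgfbr2* 4.79 times per merged exon length and 4.50 times per coding length. The co-receptor *Tgfbr3*, or betaglycan, which presents TGF-beta to its receptors, had a mean normalized count of 974 and a per-length level of 21.3.

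Ligands were lower and far more unequal than receptors and SMADs. The 22 ligand genes had a median per-length level of 8.40, against 28.6 for the 11 receptor genes and 43.0 for the 8 SMADs, and 14 of the 22 had a mean normalized count of at least 100. They held 17.5% of the summed per-length level. Counted among the 22 were the Nodal antagonists *Lefty1* and *Lefty2*, *Bmp3*, whose product opposes other BMPs, and the inhibin subunit *Inha*.

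The 3 TGF-beta ligands all lay above the median of all genes. *Tgfb2* had a mean normalized count of 2182 and a per-length level of 54.0, *Tgfb3* had 949 and 40.2, and *Tgfb1* had 816 and 23.2. *Tgfb2* exceeded *Tgfb1* 2.33 times per merged exon length, 1.35 times per longest transcript and 2.36 times per coding length. *Tgfb3* exceeded *Tgfb1* 1.73 times per merged exon length but lay below it per longest transcript (30.1 against 34.0). *Tgfb3* shares 12.4% of its exon bases with genes on the other strand.

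Among the BMP ligands, *Bmp4* and *Bmp7*, both needed for eye and kidney development, were highest. *Bmp4* had a mean normalized count of 1156 and a per-length level of 73.6, and *Bmp7* had 1597 and 56.9. With coding length the order turned, with 55.1 for *Bmp7* and 42.1 for *Bmp4*. *Bmp2*, the closest relative of *Bmp4*, had a per-length level of 19.5, and *Bmp4* exceeded it 3.78 times per merged exon length and 2.31 times per coding length. *Bmp5* had 14.4 and *Bmp6* had 7.56. Of the exon bases of *Bmp5*, 46.7% also belong to *Gm26903* on the opposite strand, so its level is less certain than the others. *Bmp3*, whose product opposes other BMPs, and *Bmp10* were lowest, with mean normalized counts of 82.6 and 45.7 and per-length levels of 1.60 and 1.46. *Bmp10* encodes a ligand that is made by the heart and binds ALK1.

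Upstream sequences of genes of the same class at different levels are shown. They are *Bmp4* and *Bmp10*, the highest and the lowest BMP ligand per length, and *Smad5* and *Smad9*, the highest and the lowest R-SMAD of the BMP branch. Each is the window of 250 bases before the start site in RefSeq (GRCm38.p6), written 5′ to 3′ on the strand of the gene. Capitals mark matches on either strand to one of 5 motifs. These are the TATA box, spelled TATAAA, the CAAT box, spelled CCAAT, and the GC box, spelled GGGCGG. The others are a GC-rich motif bound by SMADs, spelled GGCGCC, which can overlap the GC box, and the palindromic SMAD motif, spelled GTCTAGAC.
*Bmp4*, chr14:46390670-46390919, minus strand: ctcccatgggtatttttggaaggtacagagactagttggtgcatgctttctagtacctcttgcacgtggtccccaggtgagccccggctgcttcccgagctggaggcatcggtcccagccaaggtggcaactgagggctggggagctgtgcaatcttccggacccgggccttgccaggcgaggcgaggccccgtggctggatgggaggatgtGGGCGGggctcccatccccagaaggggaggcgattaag
*Bmp10*, chr6:87428744-87428993, plus strand: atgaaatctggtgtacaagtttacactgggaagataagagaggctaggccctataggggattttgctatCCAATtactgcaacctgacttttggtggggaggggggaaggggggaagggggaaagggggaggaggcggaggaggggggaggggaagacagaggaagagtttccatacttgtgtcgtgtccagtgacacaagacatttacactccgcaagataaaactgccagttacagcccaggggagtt
*Smad5*, chr13:56702760-56703009, plus strand: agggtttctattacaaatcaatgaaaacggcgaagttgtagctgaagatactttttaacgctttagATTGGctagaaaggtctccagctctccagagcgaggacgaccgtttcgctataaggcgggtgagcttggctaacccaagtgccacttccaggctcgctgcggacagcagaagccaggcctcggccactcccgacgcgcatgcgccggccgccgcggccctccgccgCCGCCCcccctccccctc
*Smad9*, chr3:54755332-54755581, plus strand: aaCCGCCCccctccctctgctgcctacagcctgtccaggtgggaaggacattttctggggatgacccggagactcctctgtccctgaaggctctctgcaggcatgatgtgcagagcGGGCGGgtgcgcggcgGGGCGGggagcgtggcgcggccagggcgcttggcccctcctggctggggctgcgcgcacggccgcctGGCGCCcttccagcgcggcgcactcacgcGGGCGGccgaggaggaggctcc

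The *Bmp4* window has a GC content of 63.2% with 11 CpG dinucleotides, and the *Bmp10* window 52.0% with 3. *Smad5* and *Smad9* do not follow the same order, since the *Smad9* window has 24 CpG dinucleotides and 4 GC boxes and the *Smad5* window 22 and 1, although the per-length level of *Smad5* was 16.7 times that of *Smad9*. Windows of 32 of the 50 genes were used here. The 50 bases after the start occur in a GENCODE transcript of the same gene for 27 of the 32, among them the 4 genes shown. In 11 of the 32, part or all of the window lies in exons of the same gene in GENCODE. For *Id3*, *Bmp6*, *Bmpr2* and *Acvr1* all 250 bases do. The *Bmpr1b* window lies outside the exons of its gene but inside the gene, before an internal start. The 32 windows had a median of 22.0 CpG dinucleotides and a median GC content of 67.4%, against 6.00 and 52.0% over the first listed window of 27025 genes and 15.0 and 59.6% over the 11849 genes whose mean normalized count was 10 or more. A GC box was found in 24 of the 32 windows, in 32.9% of all windows and in 57.2% of those of the 11849 genes. The GC-rich SMAD motif was found in 8 of the 32, in 9.54% of all and in 16.4% of those of the 11849 genes. The palindromic SMAD motif was in 0 of the 32 and in 0.174% of all windows. A CAAT box was in 14 of the 32 (43.8%), in 34.5% of all and in 35.75% of those of the 11849 genes. A TATA box was in 4 of the 32 (12.5%), in 13.0% of all and in 7.03% of those of the 11849 genes. A match describes letters in these windows and shows no binding. Across the 32 genes, the CpG count and the per-length level had a Spearman's rho of 0.33, and of 0.35 over the 21 windows outside the gene's own exons, as a description of genes that share base composition and are not independent replicates.

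**Figure D2:**
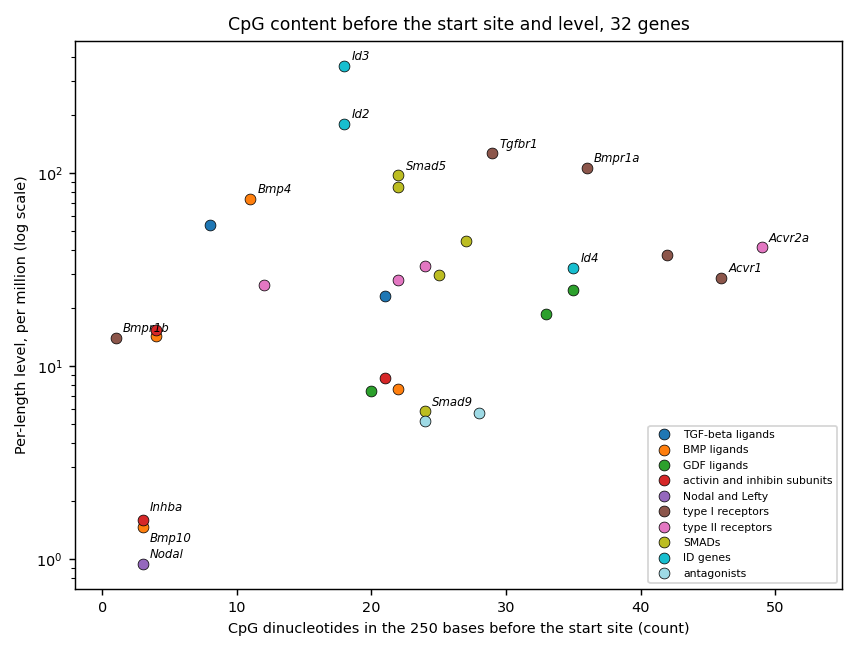
CpG dinucleotides in the 250 bases before the start site (x axis, count) against the per-length level (y axis, log scale) for the 32 genes with a window, colored by role. *Bmp10*, *Inhba* and *Nodal*, each with 3 CpG dinucleotides, have the lowest levels. *Bmpr1b* has 1 CpG dinucleotide at a level of 14.0, and *Id3* 18 at 360. The *Bmpr1b* window lies inside the gene before an internal start, and the *Id3* window lies within exons of *Id3* in GENCODE.

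The highest GDF ligand exceeded the lowest 35.1 times per merged exon length and 58.1 times per coding length. *Gdf10*, also known as BMP3b, had a mean normalized count of 903 and a per-length level of 24.8. *Gdf11*, which patterns the body axis, had 530 and 18.7. *Gdf6*, *Gdf5* and *Gdf7*, related ligands of joints and of the dorsal neural tube, had per-length levels of 8.14, 7.77 and 7.38 by merged exons, and of 6.56, 3.78 and 2.36 by coding length. Of the exon bases of *Gdf5*, 40.3% also belong to *Gm15557* on the opposite strand. *Gdf3*, a ligand of the early embryo, was lowest with a mean normalized count of 11.95 and a per-length level of 0.706.

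Activins are dimers of inhibin beta subunits, and inhibins pair a beta subunit with the alpha subunit encoded by *Inha*. *Inha* had a mean normalized count of 157 and a per-length level of 15.3. *Inhbb* had 257 and 8.66, and *Inhba* had 70.8 and 1.59. *Inhbb* exceeded *Inhba* 5.46 times per merged exon length and 3.75 times per coding length. *Inha* lay above *Inhbb* per merged exon length and below it per coding length, at 6.39 against 9.29.

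*Nodal* and its antagonists *Lefty1* and *Lefty2*, which set the left-right axis at earlier stages, were near the lower end of the 50 genes. *Lefty2* had a mean normalized count of 4.77, the only one under 10, and a per-length level of 0.261, higher than 16.1% of all genes with a mean above 0. *Nodal* had a mean normalized count of 13.8 and *Lefty1* of 17.8, at per-length levels of 0.946 and 1.45. *Lefty1* and *Lefty2* lie 35918 bases apart on chromosome 1 (GRCm38, 180935022 to 180938400 and 180893108 to 180899103). Of all stretches of 80 bases, the read length, in *Lefty1* transcripts, 10.6% also occur in *Lefty2*, so reads of the pair could not always be told apart.

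Antagonists held 3.81% of the summed per-length level. *Bambi*, a pseudoreceptor without a kinase, had a mean normalized count of 1061 and a per-length level of 29.95. *Nog*, which encodes the secreted BMP antagonist noggin, had a mean normalized count of 351 and a per-length level of 29.7, nearly the same per merged exon length, while per coding length *Bambi* exceeded it 2.70 times. *Fst*, which encodes the activin-binding follistatin, had 13.7. *Chrd* (chordin) and *Grem1* (gremlin, of limb buds) were lowest with 5.73 and 5.21, and with 3.83 and 12.2 per coding length. The secreted antagonists *Nog*, *Chrd*, *Grem1* and *Fst* together had a per-length level of 54.3, against 175 for the 7 BMP ligands.

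**Figure D3:**
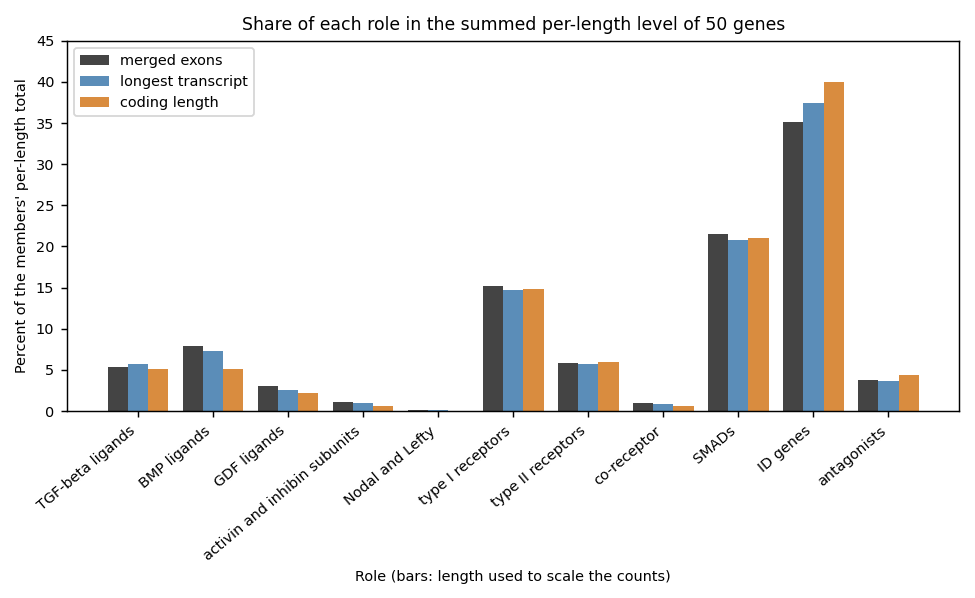
Share of each role (x axis) in the summed per-length level of the 50 genes (y axis, percent), with a bar for each choice of length. The *Id* genes hold 35.1%, 37.4% and 39.9% with merged exons, longest transcript and coding length, and *Nodal* and the *Lefty* genes 0.120%, 0.108% and 0.0550%.

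The choice of length moved the levels of single genes. With coding length, the level moved by more than 1.5 times for 16 of the 50 genes. The widest moves were those of *Id4*, whose level came to 2.48 times that by merged exons, and *Gdf7*, whose level came to 0.320 of it. Coding sequence makes up 12.5% of the merged exons of *Id4* and 97.2% of those of *Gdf7*, while their counts cover the whole gene. With the longest transcript, 0 genes moved by more than 1.5 times. Among the 10 roles with more than 1 gene, the gene with the highest level was the same in 10 with the longest transcript and in 6 with coding length.

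**Figure D4:**
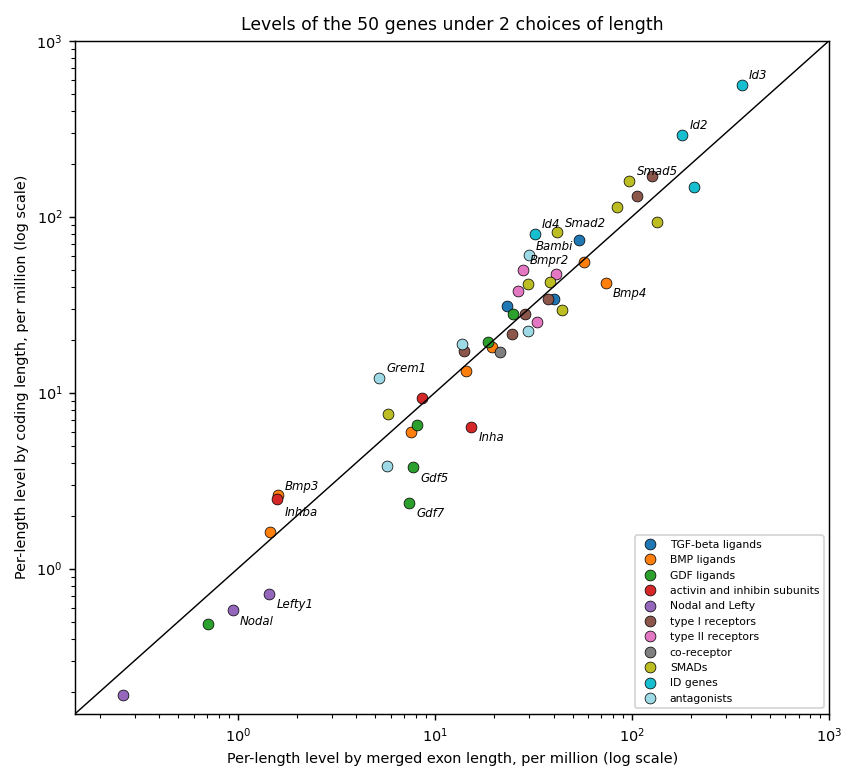
Per-length level by merged exon length (x axis) against that by coding length (y axis), both on log scales, for the 50 genes colored by role, with the line of equal values. The 16 named genes lie more than 1.5 times away from the line, with *Id4* at 32.2 and 79.8 and *Gdf7* at 7.38 and 2.36.

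The 50 genes lie on 17 chromosomes, with 7 on chromosome 2 and 6 on chromosome 1. Besides the *Lefty* genes, *Acvrl1* and *Acvr1b* are neighbors within 100000 bases. They lie on the same strand of chromosome 15 with 28730 bases between them (GRCm38, 101128522 to 101145336 and 101174067 to 101213684). On the opposite strand, exons of other genes overlap 12 of the 50 genes, 3 of them (*Bmp5*, *Gdf5* and *Tgfb3*) by at least 10% of their exon bases. The same strand is overlapped for 2 genes, *Tgfbr3* and *Smad5*, by less than 10%. Of the 50 genes, 33 share no stretch of 80 bases with a transcript of another gene.

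A list of 42 other genes of the pathway was described in the same way. Of these, 35 had a mean normalized count of at least 10, and 24 of at least 100. The highest per-length level belonged to *Fstl1*, a secreted follistatin-like protein of mesenchyme, with a mean normalized count of 14939 and a level of 435, above that of *Id3*. *Ski*, a repressor that binds SMADs, had a level of 130, *Twsg1*, a BMP-binding protein, 107, *Nbl1*, a secreted BMP antagonist, 96.6, and *Rgma*, a BMP co-receptor, 69.8. *Gdf1* was listed at 0, and *Bmp15*, *Cfc1*, *Tdgf1*, *Inhbc*, *Inhbe* and *Acvr1c* had mean normalized counts between 0.748 and 8.28. Exon overlap with other genes was not examined for this list, so a count of 0 need not mean that a gene was silent. *Tdgf1* and *Cfc1* encode co-receptors of Nodal, and *Acvr1c* a Nodal type I receptor.

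Genes used as markers of embryonic tissues, of trophoblast and placenta and of uterine natural killer cells were all present in the mean. All 15 markers of embryonic tissues had a mean normalized count above 100, with a range of 361 (*Neurod1*) to 136056 (*Hbb-y*). Of 10 trophoblast and placenta markers, all were at 10 or above and 6 at 100 or above, up to 7024 for *Prl3b1* and 6932 for *Tpbpa*, and their summed per-length level was 1618. All 5 markers of uterine natural killer cells lay between 226 (*Prf1*) and 1333 (*Gzmd*), with a summed per-length level of 546. The paper found placenta-specific genes raised in homozygous embryos and proposes a deregulated cell fate. A mean over all embryos does not show which embryos or tissues such transcripts came from, and their source was not tested. The part of tissue around the embryo in the levels of the 50 genes was not tested either. *Wwc2* itself had a mean normalized count of 2117 over the embryos, which cannot check the genotypes.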

How the data were processed

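RNA of 3 wildtype, 3 heterozygous and 4 homozygous embryos was analysed. Per the methods of the study and its processing notes, the authors trimmed reads with Trimmomatic 0.33, aligned them to mm10 with HISAT2, counted them per gene with HTSeq and divided the counts by DESeq2 size factors. The library kit is called directional in the methods of the study but not in the sample labels. The strand setting of the counting is not given in the sources used here. The authors deposited 2 tables, and the value used is a signal without fixed unit, the mean over the 10 embryos of each gene's normalized count, equal in both tables for 24302 genes (relative tolerance 1e-05). These means sum to 2.56e+07, and with no counts per embryo no interval can be given. The other columns hold the authors' comparisons of homozygous and of heterozygous with wildtype embryos (fold changes, errors, p-values) and were not used.

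Genes were matched to GENCODE release M21 (GRCm38), 22785 by identifier and 582 by symbol, all 50 members by identifier. The 935 unmatched genes held 2.57% of the counts. Merged exon, longest transcript and coding lengths were taken from it with Python 3.11.15 and pandas 2.3.3, and the scaling was checked on simulated data. Promoter windows came from RefSeq (GRCm38.p6), the first listed for each gene. Per role, every member was named. Of the other pathway genes, the 5 highest were named by rule, and *Gdf1* and those under 10 were added after their values were seen. The members and lists were chosen with earlier results of these data known.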

Additional observations from a re-analysis of the deposited data

How the results depend on the processing

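Of the 50 genes, 49 had a mean normalized count of at least 10, 50 of at least 1, 42 of at least 100 and 50 above 0. The median per-length level of the 50 genes, 25.6 with merged exons, was 21.9 with the longest transcript, 26.6 with coding length and 29.0 when 56 globin and ribosomal protein genes were left out of the total. The share of the *Id* genes was 35.1%, 37.4% and 39.9% with merged exons, longest transcript and coding length. The median percentile of the 50 genes was 66.0 among genes with a mean above 0 and 56.1 among those with a mean of at least 10. No paired analysis was possible because the values are means over all embryos, and for the same reason no embryo could be left out in turn. Sequencing depth per embryo and the spread between embryos remain unknown, so differences between neighboring levels carry no error.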
